A study of Mus musculus with 25 samples.

Results

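Broad H3K79me2 domains are merged stretches of at least 10 kb under called dimethylation of lysine 79 of histone H3 in mouse embryonic stem cells (mESCs). Each holds a peak of both wild-type (WT) libraries, and its length is that of their peaks joined. They were found by merging the peaks of the 2 WT lists that overlapped by at least 1 bp. Merged regions were kept when they held a peak of each list and were at least 10000 bp long. The rule gave 945 domains out of 35907 H3K79me2 regions shared by the lists, or 2.63%. With 1 WT list alone the count was 474 without replicate 1 and 609 without replicate 2. The domains held 15.6 of the 72.4 Mb of shared H3K79me2 sequence, or 21.6%. The members were thus chosen by measured values, the lengths and peaks of the WT lists, so lengths, numbers of peaks and H3K79me2 enrichments are given below as descriptions, with no test.

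Chromatin immunoprecipitation (ChIP) with antibodies against H3K79me2 and H3K79me3 was done in v6.5 mESCs, an untreated mouse embryonic stem cell line, with 2 libraries of each mark from WT cells and 2 from cells with a Dot1L knockout (KO). RNA was sequenced from 3 WT and 2 KO libraries of the same line, with 26860527 to 33755064 estimated counts each. RNA also came from 8-cell embryos of a cross of B6D2F1 and Cast/EiJ mice, each library from 30 to 35 pooled embryos, 56 hours after fertilization. These embryos were wild type, and 2 pools received DMSO, the solvent, and 2 received SGC0946, an inhibitor of Dot1L, with 24950199 to 32479590 counts each. How the knockout allele was made and whether it is 1 clone is not given in the labels. The labels do not say that replicates were separate cultures, so p-values measure only the spread between these libraries, which may be technical. The ChIP lists give no read counts, so the depth behind a peak is unknown. Of 8 markers of mESCs, all were tested, with summed levels of 4425 to 4485 CPM (counts scaled to a common library total) in WT and 3936 to 4083 CPM in KO. Of 8 markers of fibroblast feeder cells 7 were tested, with sums of 154 to 197 CPM in WT and 196 to 245 CPM in KO, and 5 of 6 primitive endoderm markers had sums of 14.1 to 15.4 and 21.1 to 23.0 CPM.

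Dot1L is the methyltransferase that adds methyl groups to lysine 79 of histone H3. It works beside elongating RNA polymerase II, in complexes with AF9, ENL and AF10 proteins, and the mark lies over the transcribed part of active genes, most densely after the start. It is known as a mark of transcribed genes, and in mESCs, which can form all lineages of the embryo, it marks the genes that these cells transcribe.

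The promoters of the longest domains are shown because the edge of a typical domain lay just past them. Among the host genes of the 10 longest domains, 6 had promoters in the RefSeq table (GRCm38.p6, the build named mm10 in the submitters' processing notes). Each run below reads 5′ to 3′ in the direction of the gene, from 250 bases before to 50 bases after the annotated start whose position lies nearest to the domain edge. Capitals mark CG dinucleotides.
Ankrd11 (chr8:123042235-123042534, minus strand): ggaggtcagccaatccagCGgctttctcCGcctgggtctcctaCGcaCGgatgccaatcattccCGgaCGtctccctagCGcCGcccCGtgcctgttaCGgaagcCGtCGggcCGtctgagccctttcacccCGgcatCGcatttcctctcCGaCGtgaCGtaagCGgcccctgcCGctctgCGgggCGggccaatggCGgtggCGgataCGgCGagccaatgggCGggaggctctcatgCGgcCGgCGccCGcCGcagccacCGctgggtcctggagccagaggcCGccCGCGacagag
Cdyl (chr13:35741212-35741511, plus strand): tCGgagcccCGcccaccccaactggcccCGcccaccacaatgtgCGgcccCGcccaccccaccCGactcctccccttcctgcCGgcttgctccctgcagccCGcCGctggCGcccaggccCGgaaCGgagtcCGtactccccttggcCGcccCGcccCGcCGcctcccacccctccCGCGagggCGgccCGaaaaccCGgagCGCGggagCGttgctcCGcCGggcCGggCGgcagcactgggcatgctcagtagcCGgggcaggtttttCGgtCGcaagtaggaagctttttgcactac
Jarid2 (chr13:44731021-44731320, plus strand): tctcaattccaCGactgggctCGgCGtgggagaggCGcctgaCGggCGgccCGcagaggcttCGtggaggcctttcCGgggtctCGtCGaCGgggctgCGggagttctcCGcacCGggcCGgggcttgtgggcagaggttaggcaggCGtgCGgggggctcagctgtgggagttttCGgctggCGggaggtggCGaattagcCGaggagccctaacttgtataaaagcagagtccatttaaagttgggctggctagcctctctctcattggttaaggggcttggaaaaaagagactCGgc
Cbfa2t2 (chr2:154436234-154436533, plus strand): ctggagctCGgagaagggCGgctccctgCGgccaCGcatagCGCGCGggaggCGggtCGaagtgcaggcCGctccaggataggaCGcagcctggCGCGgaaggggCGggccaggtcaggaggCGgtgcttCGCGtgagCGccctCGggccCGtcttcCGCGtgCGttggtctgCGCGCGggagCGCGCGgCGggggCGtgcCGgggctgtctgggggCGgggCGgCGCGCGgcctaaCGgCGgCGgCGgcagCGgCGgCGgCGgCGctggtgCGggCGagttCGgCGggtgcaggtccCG
Med26 (chr8:72548261-72548560, minus strand): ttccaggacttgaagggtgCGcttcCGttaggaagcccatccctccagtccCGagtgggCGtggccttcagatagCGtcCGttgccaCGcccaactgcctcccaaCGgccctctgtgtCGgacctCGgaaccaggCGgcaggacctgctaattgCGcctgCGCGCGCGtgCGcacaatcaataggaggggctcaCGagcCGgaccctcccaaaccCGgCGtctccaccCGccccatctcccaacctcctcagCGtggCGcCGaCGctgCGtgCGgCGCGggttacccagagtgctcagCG
Gatad2b (chr3:90292931-90293230, plus strand): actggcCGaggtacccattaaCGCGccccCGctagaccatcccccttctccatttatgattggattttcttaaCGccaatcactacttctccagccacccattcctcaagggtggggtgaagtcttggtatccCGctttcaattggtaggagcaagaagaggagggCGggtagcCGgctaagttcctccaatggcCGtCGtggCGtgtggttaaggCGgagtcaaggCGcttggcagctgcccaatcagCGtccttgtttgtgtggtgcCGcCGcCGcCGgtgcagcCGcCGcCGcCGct
In 5 of these genes the domain began 13 to 427 bp after the nearest annotated start: 13 bp in Cbfa2t2, 143 bp in Jarid2, 175 bp in Med26, 207 bp in Cdyl and 427 bp in Gatad2b. Cdyl has 3 annotated starts, and the one used lies well inside the gene. The span of Cdyl begins at chr13:35659818 and its domain at chr13:35741669. The longest domain, 1 of 3 in Ankrd11, began 41336 bp into the gene. The sequences held between 22 CG dinucleotides in Gatad2b and 51 in Cbfa2t2. The letters TATAAA were found in the promoter of Jarid2 and CCAAT in those of Ankrd11, Jarid2 and Gatad2b.

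Promoters of genes under domains were rich in CG dinucleotides. Of the 796 tested protein-coding genes under a domain, 641 (80.5%) had an entry in the promoter table, with 839 promoters. Over all 808 tested genes the share was 79.5%, under the 80% required here, so the comparison was kept to protein-coding genes. The median was 27 CG dinucleotides per 300 bases, against 22 in promoters of protein-coding genes under shorter H3K79me2 regions, 11 in those with no region and 13 in all 21263 protein-coding promoters. The TATA box letters TATAAA stood in 5.01% of the 839 promoters, against 6.26% under shorter regions and 12.6% of all. The letters TCTCGCGAG, a palindromic core found in CG-rich promoters whose opposite strand matches itself shifted by 1 base, stood in 35 (4.17%). They stood in 1.80% of promoters of genes under shorter regions and in 0.964% of all. Among genes of the top quintile of WT level the shares were 4.54% under domains and 2.58% under shorter regions. The letters CCGGAAG, the core of ETS family sites, went the other way relative to shorter regions, with 14.4% under domains, 22.0% under shorter regions and 11.6% in all. For AAGATGGCG, the core of YY1 sites, the shares were 4.29, 3.88 and 1.83%. For TGCGCATGC, the core of NRF1 sites, they were 2.26, 3.66 and 1.98%, and for CCAAT 33.7, 39.8 and 38.2%. Each motif was searched on both strands, and none contains another. All but TATAAA and CCAAT hold CG dinucleotides themselves. The part that CG content has in these shares was not tested.

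Domains typically began just after the start of their host gene and ran into its body, and few reached its end. The host is the gene with the longest overlap, and 738 domains in 629 protein-coding hosts had a strand in the promoter table. The upstream edge lay at a median of 385.5 bp after the nearest annotated start, with quartiles of 132 and 3329 bp. In 465 of the 738 domains (63.0%) the edge was within 1 kb of the start. Only 43 (5.83%) covered this nearest start itself, and 6 (0.813%) reached the annotated end of the gene. Cover of other annotated starts of the host was not counted. The downstream edge lay at a median of 16871 bp. Shorter regions lay deeper in their genes, with median edges at 2262.5 bp for regions of 2 to 10 kb and 10768 bp for those under 2 kb, and 37.8 and 9.28% within 1 kb. Where the start was taken as the 5′ end of the whole gene span, the median edge of the domains was at 913.5 bp, a choice made after seeing the data. Domains of 1 host share its start, so these distances are not independent.

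**Figure D1:**
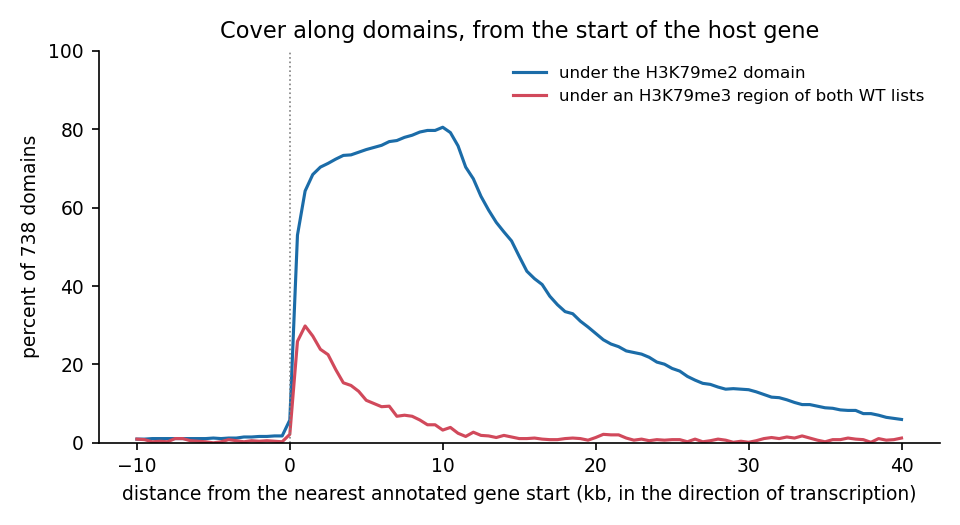
Percent of the 738 stranded domains (vertical axis) whose domain, in blue, or an H3K79me3 region of both WT lists, in red, covers a point at a given distance in kb from the annotated gene start (horizontal axis, dotted line at 0). Domain cover was 70.3% at 2 kb, 80.5% at 10 kb and 33.5% at 18 kb, while H3K79me3 cover fell from 23.8% at 2 kb to 3.25% at 10 kb.

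The profile along the host genes shows cover by domains rising within the first kilobase and staying high to 10 kb, the minimum length that the rule sets. H3K79me3, which the rule did not use, lay near the start. A both-list H3K79me3 region covered the point 2 kb after the start in 23.8% of the domains, the point at 6 kb in 9.21% and the point at 10 kb in 3.25%.

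Domain lengths ran from 10.0 to 92.6 kb with a median of 14.0 kb and quartiles of 11.6 and 18.3 kb, against a median of 1.02 kb for all shared regions. There were 187 domains of at least 20 kb, 58 of at least 30 kb and 9 of at least 50 kb. The longest lay over Ankrd11 (chr8:122908370-123000948, 92.6 kb), which encodes an ankyrin repeat protein that binds histone deacetylases. It covered 58.2% of the gene. The next were over Cdyl, a chromodomain corepressor (chr13:35741669-35816861, 75.2 kb), and Jarid2, an accessory subunit of Polycomb repressive complex PRC2 (chr13:44731414-44801088, 69.7 kb). Among the other hosts of the 10 longest domains, Rybp, a subunit of variant Polycomb complexes, had 53.7 kb, Ncoa3, a nuclear receptor coactivator, 53.3 kb, Cbfa2t2, a corepressor of the ETO family, 53.3 kb, Med26, a Mediator subunit, 50.9 kb, and Gatad2b, a subunit of the NuRD complex, 49.0 kb. The domain over Med26 covered 94.7% of the gene and that over Rybp 91.4%.

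Many broad domains were strings of peaks and not single peaks. A single peak of at least 10 kb was present in replicate 1 in 587 domains and in replicate 2 in 447. It was present in both lists in 369 domains and in neither in 280. The median domain held 2 peaks of replicate 1 and 3 of replicate 2. The lists covered a median of 98.2 and 96.7% of a domain, with minima of 85.5 and 73.9%. No merged region of at least 10 kb came from 1 list alone. The highest fold enrichment in a domain, the authors' value per peak, had a median of 8.85 in replicate 1 and 8.56 in replicate 2, against 4.13 and 4.06 in shorter regions.

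Some genes carried several domains, and the gaps between them were often short. Of the host genes, 106 had at least 2 domains. In these there were 143 pairs of neighbouring domains with a median gap of 1017 bp, and 71 gaps were under 1000 bp. Tead1, a transcription factor of the Hippo pathway, had 7 domains that summed to 75.1 kb on chromosome 7. Med13l, a subunit of the Mediator kinase module, had 5 that summed to 112.4 kb, more than the longest single domain, and the long noncoding RNA gene Pvt1 had 5 with 77.3 kb. Ctbp2, Kansl1, Kat6b and Tbl1x had 4 each. When peaks within 1 kb of each other were joined, the number of regions of at least 10 kb went from 945 to 2620.

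At the threshold, the shortest domains lay over Gjc1, a connexin gene (10000 bp), in a second domain of Cbfa2t2 (10011 bp), and over Rrp15, a ribosome biogenesis gene (10029 bp). The regions just under it lay over Rbm27 (9998 bp), Wac (9996 bp) and Chmp4c (9984 bp). Best enrichments in replicate 1 were 8.25, 7.55 and 6.57-fold inside and 7.63, 6.02 and 6.90-fold outside.

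Almost no called H3K79me2 was left in the domains in KO. The KO lists gave 1 H3K79me2 peak each inside the 945 domains, and neither overlapped the other. The peak of replicate 1 lay in the domain of Ilrun (chr17:27809464-27809647, 184 bp, 3.84-fold). That of replicate 2 lay in the domain of Golph3, a Golgi protein gene (chr15:12324306-12324507, 202 bp, 4.27-fold). No H3K79me3 peak of either KO list fell in a domain. The 34962 shorter regions held H3K79me2 peaks of KO in 8 and 4 cases and H3K79me3 peaks in 6 and 7. No test was run, since a 2-sided exact permutation test of 2 against 2 lists cannot go below p = 0.333.

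H3K79me3 was found in more of the broad domains than of the shorter regions. Of the 945 domains, 388 (41.1%, Wilson 95% interval 38.0 to 44.2%) overlapped an H3K79me3 region of both WT lists, against 1488 of 34962 shorter regions (4.26%, 4.05 to 4.47%). With the H3K79me3 list of replicate 1 alone the shares were 66.2% of domains and 9.34% of shorter regions, and with that of replicate 2 alone 45.5 and 4.69%. Longer regions offer more sequence to overlap, so the covered share of sequence is given beside it. H3K79me3 regions of both lists covered 7.71% of domain sequence and 3.60% of the sequence of shorter regions. That share was 0.823% in regions under 1 kb, 1.53% at 1 to 2 kb, 4.26% at 2 to 5 kb and 6.79% at 5 to 10 kb. Beyond 10 kb it was 6.85% at 10 to 15 kb, 8.21% at 15 to 25 kb and 8.53% at 25 kb or more. The classes also differed in position, and H3K79me3 lay near the start. The upstream edge was within 1 kb of a start in 63.0% of stranded domains. It was so in 37.8% of regions of 2 to 10 kb and 9.28% of those under 2 kb. What position contributed to the shares was not tested. The H3K79me3 lists differed in size, and the share of domain sequence was 10.8% with replicate 1 alone and 5.85% with replicate 2 alone. Intervals cover counting error only, and the mark was not evenly spread: it covered 24.3% of the domain of Jarid2 and 18.9% of that of Rybp, but 0% of that of Ankrd11 and 1.48% of that of Cdyl.

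**Figure D2:**
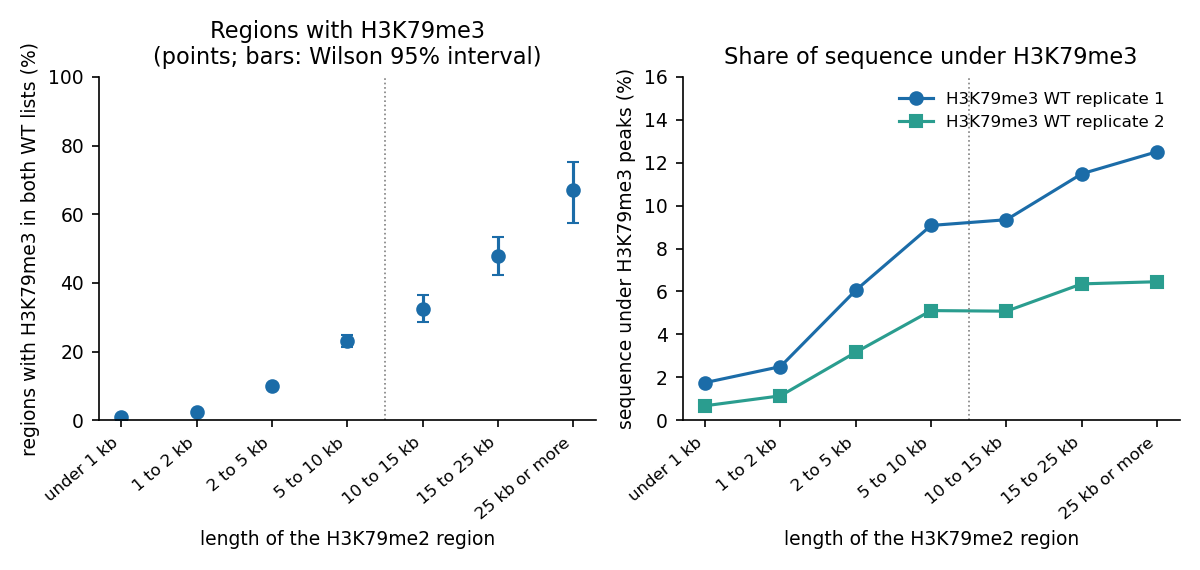
Left, percent of H3K79me2 regions with an H3K79me3 region of both WT lists (points, with Wilson 95% intervals) by length class of the H3K79me2 region. Right, percent of H3K79me2 sequence under H3K79me3 peaks of each WT library. The dotted line marks 10 kb. The share of regions rose from 32.3% at 10 to 15 kb to 67.0% at 25 kb or more, and replicate 1 gave a larger share of sequence than replicate 2 in every class.

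Domains were found on every assembled chromosome except Y. Chromosome 8 had 85, the largest number, and chromosomes 11, 2 and 5 had 81, 79 and 78. Chromosome 8 held 8.99% of the domains and 6.66% of the shared H3K79me2 regions. Of its regions 3.56% were domains, against 1.52% on chromosome 19, which had 16 domains. Chromosome X had 21. At a minimum of 15000 bp, chromosome 8 held 48 of 403 domains, a minimum added after seeing the data.

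The question of which genes carry broad domains was taken to the RNA of WT mESCs. Of the 945 domains, 939 covered an annotated gene by at least 1000 bp, and 907 covered exactly 1 protein-coding gene in this way. The genes numbered 889, of which 809 are protein-coding, 61 are long noncoding RNA genes and 19 belong to other classes. Of these, 811 had an entry in the counts of mESCs, and 808 were tested, 796 of them protein-coding. Of the 13 protein-coding genes that stayed untested, most, as Nacc1 and Ptprg, had no entry under their annotated symbol. Others, as Septin2, had an entry. Of those with an entry, 1 was left out because its symbol was shared by several rows, and the rest had too few counts.

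Genes under domains were abundant and long. Their median level was 153.7 CPM in WT, against 47.1 CPM in genes under shorter regions, 3.03 CPM in genes with no region and 11.6 CPM over all 18544 tested genes with a position. Divided by the gene span, the only length in hand, the medians were 2.79, 2.10, 0.273 and 0.728 CPM per kb. The median span was 50.6 kb under domains, 21.8 kb under shorter regions and 14.4 kb with no region. Of all tested genes, 4.36% were under a domain. Over quintiles of genes from the lowest to the highest WT level the share was 0.0809, 0.377, 0.297, 2.86 and 18.2%. Within the top quintile it was 0.162% of genes with a span under 10 kb (1 of 617), 12.2% at 10 to 30 kb, 27.7% at 30 to 100 kb and 26.3% at 100 kb or more. A gene shorter than 10 kb can hardly hold a domain of that length, so the lowest of these shares follows from the rule. Across the 808 genes, domain length had a Spearman rho of 0.16 with WT CPM and 0.22 with gene span, as a description over genes that share the same libraries.

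**Figure D3:**
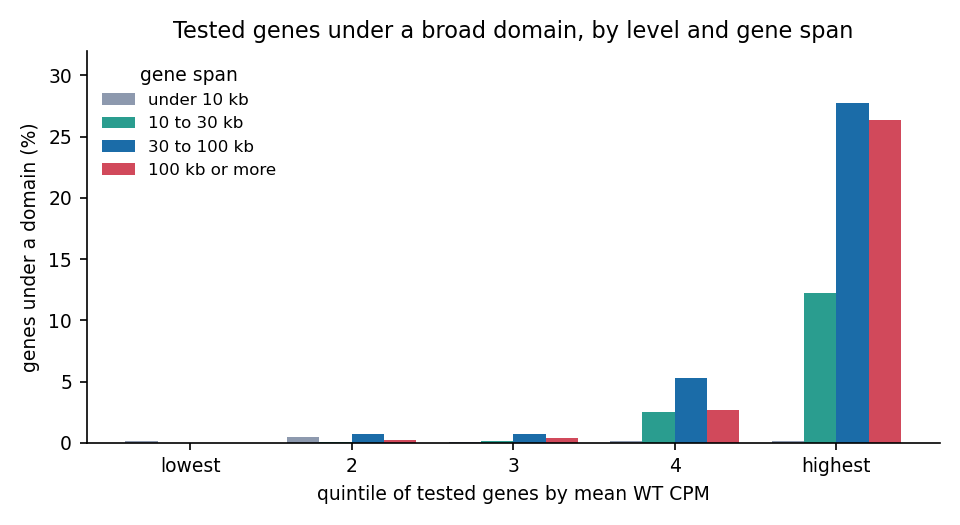
Percent of tested genes under a broad domain (vertical axis) by quintile of WT level (horizontal axis) and gene span (bars). Bars start at 0, and the highest are those of the top quintile with spans of 30 to 100 kb (27.7%) and of 100 kb or more (26.3%).

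Gene lists drawn up for mESCs differed in how many members lay under domains. Of 40 chromatin regulators 17 (42.5%) did, and their list had a median span of 72.0 kb and a median level of 249.8 CPM. Of 20 core pluripotency genes 4 did, namely Klf5, Nr5a2, Sall4 and Esrrb, and of 30 genes for SR and hnRNP splicing proteins 6 did. Of 28 genes of Dot1L complexes and elongation factors 5 did, and 2 of 26 cell cycle and DNA damage genes. None of 40 genes for cytosolic ribosomal proteins did, although all 40 carried a shorter H3K79me2 region and their median level was 638 CPM. Their median span was 3.51 kb. Of 15 tested lineage genes none lay under a domain, and 13 had no region. No test was made of these counts, since lists and domains were chosen with results of these data known.

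The effect of losing Dot1L on these genes was asked of the RNA of KO and WT mESCs. The targeted gene itself lay under a domain of 10.2 kb (chr10:80755411-80765572), just after its start. Dot1l (ENSMUSG00000061589) had 104, 96.9 and 99.2 CPM in WT and 81.4 and 71.5 CPM in KO, a log2 fold change of −0.39 (SE 0.06, edgeR adjusted p 1.61e-04). The KO libraries were both below the WT libraries, and the transcript was still counted in KO, which counts per gene cannot relate to the deleted part.

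More genes under domains fell than rose in KO, and most changes were small. Of the 808, 107 (13.2%) were called higher and 350 (43.3%) lower in KO at an edgeR adjusted p under 0.05. Over all 19532 tested genes 43.9% were called, 22.3% higher and 21.6% lower. The median log2 fold change was −0.10 under domains, −0.05 under shorter regions, 0.11 in genes with no region and 0.00 over all tested genes with a position. Changes of at least 1 on the log2 scale were few, with 3 higher and 12 lower genes under domains. Over all tested genes, 4.6% were called higher and 3.04% lower by that much. WT and KO libraries did not overlap in 599 of the 808 genes (74.1%), against 62.5% of all tested genes. Under upper-quartile scaling, which moved the median of all genes to 0.07 and the share of higher calls among all calls from 50.8 to 63.5%, the counts under domains were 167 higher and 254 lower and the median was −0.03. Without KO replicate 1 the median was −0.06. In bulk RNA, fewer cells of a kind and less RNA per cell cannot be told apart.

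In the top quintile of WT level the shares of called genes were close under domains and under shorter regions, although the median level was 179 CPM under domains and 117 CPM under shorter regions. In this quintile, 674 genes under a domain had a median log2 fold change of −0.10, with 12.5% called higher and 45.4% lower. The 2784 genes under shorter regions had a median of −0.10, with 12.5% higher and 45.4% lower. The 251 genes of this quintile with no H3K79me2 region shared by both WT lists had a median of −0.16, with 13.9% higher and 53.8% lower. Regions not shared by both lists were not counted, so these genes may hold called H3K79me2. In a fit of autosomal genes, the 226 such genes had a median of −0.14, with 53.5% lower. In that fit the median was −0.11 for 659 genes under domains (48.9% lower) and −0.10 for 2650 under shorter regions (45.9% lower). With all chromosomes and upper-quartile scaling, the shares higher and lower were 20.5 and 33.2% under domains and 21.0 and 33.7% under shorter regions. In the quintile below it, 34.9% of 106 genes under domains and 30.0% of 2685 under shorter regions were lower, and 18.9 and 20.5% were higher. The lower quintiles held 11, 14 and 3 of the 808 genes. Among genes under domains of 10 to 15 kb, 62 of 437 were higher and 182 lower, at 15 to 25 kb 36 and 119 of 264, and at 25 kb or more 9 and 49 of 107. The Spearman rho of domain length and log2 fold change was −0.03 over the 808 genes, as a description.

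**Figure D4:**
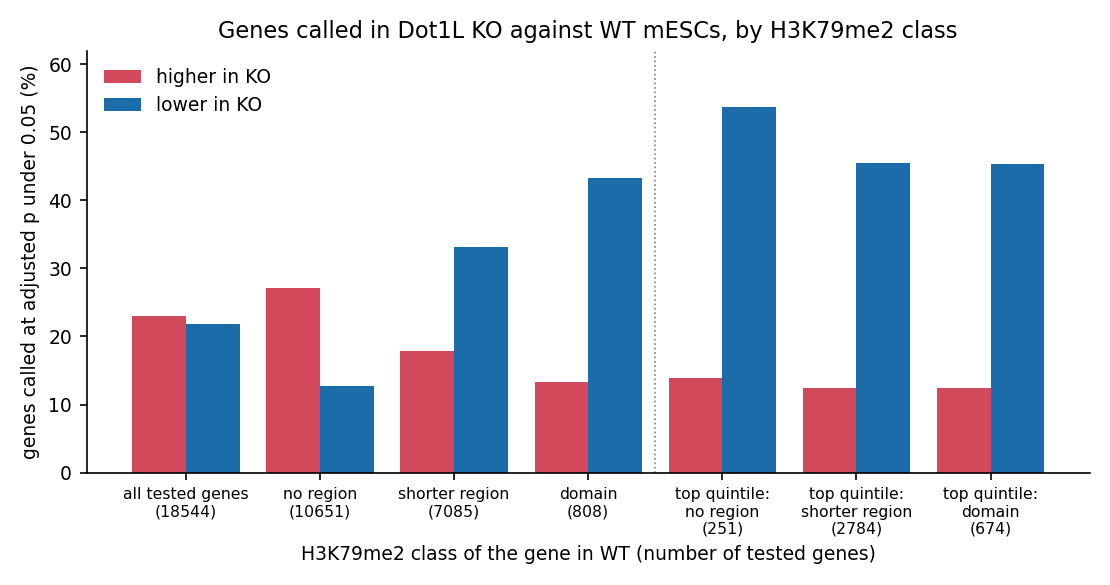
Percent of tested genes called higher (red) or lower (blue) in KO at an edgeR adjusted p under 0.05, by the H3K79me2 class of the gene in WT, for all genes (left of the dotted line) and for the top quintile of WT level (right). Numbers of tested genes stand in brackets. Over all levels the lower share was 43.3% under domains and 12.7% with no region, while within the top quintile domains and shorter regions both had 45.4%.

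Genes on chromosome X were lower in KO, with or without a domain. All 15 tested genes under X-linked domains were called lower, with a median log2 fold change of −0.86. Over the 734 tested genes of chromosome X the median was −0.57 and 60.5% were called lower. The 18 tested genes of chromosome Y, none under a domain, had a median of −1.10, and 94.4% were below 0. The 793 autosomal genes under domains had 107 higher and 335 lower calls and a median of −0.09. On chromosome 8, which had the most domains, 11 of 70 genes under domains (15.7%) were higher and 32 (45.7%) lower, against 28.9 and 20.4% of all tested genes of the chromosome. Their median was −0.12, against 0.06 for all tested genes of chromosome 8. The X-linked genes include Kdm6a, an H3K27 demethylase (chrX:18164177-18197649), with 251, 257 and 255 CPM in WT and 101 and 113 CPM in KO and a log2 fold change of −1.25 (SE 0.05, edgeR adjusted p 1.47e-09). Atrx, a chromatin remodeller (chrX:105899234-105923899), had 1353, 1436 and 1426 CPM in WT and 579 and 672 CPM in KO, a log2 fold change of −1.17. Fgd1, an exchange factor for the small GTPase Cdc42, had 199, 189.8 and 188 CPM in WT and 80.2 and 81.0 CPM in KO, a log2 fold change of −1.25. In each of these genes both KO libraries lay below every WT library. What chromosome X as a whole contributed to these falls was not tested.

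The gene under a domain that rose most in KO was Spry4. Spry4 (ENSMUSG00000024427, chromosome 18), an inhibitor of receptor tyrosine kinase signalling, had 95.2, 82.8 and 86.1 CPM in WT and 217 and 246 CPM in KO. Its log2 fold change was 1.40 (SE 0.06, edgeR adjusted p 2.93e-09), and the KO libraries lay well above the WT libraries. Ero1a (ENSMUSG00000021831), an oxidase that forms disulfide bonds in the endoplasmic reticulum, had 226, 223 and 209 CPM in WT and 496 and 386 CPM in KO, a log2 fold change of 1.01. Its KO libraries were apart from each other, and both were above WT. Etnk1, an ethanolamine kinase, had 244, 238 and 237 CPM in WT and 471 and 491 CPM in KO, a log2 fold change of 1.00. Egln1, the prolyl hydroxylase that marks hypoxia-inducible factor for destruction (the longer of 2 domains at chr8:124914768-124930952), had 57.5, 55.6 and 52.2 CPM in WT and 102 and 81.6 CPM in KO and 0.74. Log2 fold changes were 0.89 for the ubiquitin ligase gene Mkrn1, 0.84 for the ADP-ribosyltransferase gene Tiparp and 0.66 for the transcription factor gene Mef2d. Myl4, a myosin light chain gene, rose by 0.76 at only 2.23 to 4.57 CPM, and its domain is mainly over the neighbouring Cdc27.

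Among autosomal genes under domains with a mean of at least 1 CPM, the largest falls were those of Gm7775, Fbxo15, Zfp987, Sall1 and Gab1. Fbxo15 (ENSMUSG00000034391, chromosome 18), an F-box gene known as a marker of undifferentiated cells, had 205, 211 and 206 CPM in WT and 78.6 and 85.3 CPM in KO. Its log2 fold change was −1.34 (SE 0.05, edgeR adjusted p 6.19e-10). Sall1 (ENSMUSG00000031665, chr8:89026342-89042654), a zinc finger factor of the Sall family, had 282, 269.8 and 269.6 CPM in WT and 107 and 125 CPM in KO, a log2 fold change of −1.24. Both KO libraries of each gene were below WT, and those of Sall1 differed from each other more than the WT libraries did. Gab1 (ENSMUSG00000031714), an adaptor of receptor tyrosine kinases with 3 domains, the longest at chr8:80838176-80859133, had 387, 389 and 393 CPM in WT and 177 and 175 CPM in KO. Its log2 fold change was −1.15 (SE 0.04, edgeR adjusted p 3.04e-10). Zfp987 had 92.3, 104 and 93.5 CPM in WT and 35.8 and 42.2 CPM in KO and a log2 fold change of −1.31, but it belongs to a cluster of closely related zinc finger genes on chromosome 4 whose reads may be shared. Gm7775 is a pseudogene under the domain of Col18a1, with 1.67 to 2.03 CPM in WT and 0.585 to 0.843 CPM in KO, and its value is likewise uncertain. Kat6b, a histone acetyltransferase gene with 4 domains that was chosen after its values were seen, had 544, 536 and 555 CPM in WT and 299.9 and 339 CPM in KO, a log2 fold change of −0.77.

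**Figure D5:**
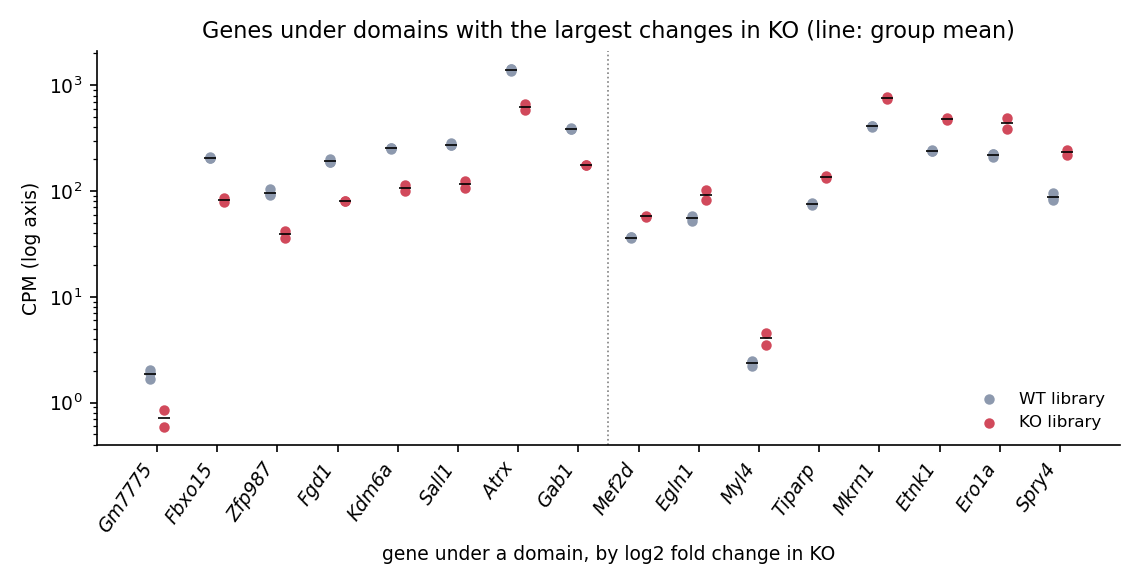
CPM on a log axis of the 16 genes under domains with the largest called changes, 8 lower (left of the dotted line) and 8 higher in KO, ordered by log2 fold change. Grey points are the 3 WT libraries, red points the 2 KO libraries and lines the group means. Genes with overlapping libraries were left out by the naming rule, and Gm7775 and Myl4 lie below 10 CPM.

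The hosts of the 10 longest domains had log2 fold changes between −0.55 and 0.26. Of these, 5 were called lower and 1 higher, where 43.3% of all genes under domains were lower and 13.2% higher. Over all tested genes the shares were 21.6 and 22.3%. Ankrd11 had 609.9, 604 and 626 CPM in WT and 474 and 505 CPM in KO, a log2 fold change of −0.33 (SE 0.04, edgeR adjusted p 2.52e-05). Cdyl had 77.6, 82.5 and 79.7 CPM in WT and 53.6 and 55.7 CPM in KO, a log2 fold change of −0.55, the largest of the 10. Cbfa2t2 was the gene that rose, with 167, 164 and 170.2 CPM in WT and 203 and 199 CPM in KO and a log2 fold change of 0.26. In these 3 genes the WT and KO libraries were separate. Rybp had a log2 fold change of −0.20. Jarid2 had −0.11, and its call lapsed under upper-quartile scaling, with an edgeR adjusted p of 0.343. It also lapsed without KO replicate 1 (0.111), without WT replicate 1 (0.104), without WT replicate 2 (0.108), without WT replicate 3 (0.127), with the replicate number as a block (0.053) and with at least 10 counts required in every library (0.052). Ncoa3, Med26 and Gatad2b did not pass, with values from −0.02 to 0.09. Ncoa3 had 281, 272 and 277 CPM in WT and 275 and 286 CPM in KO, and these libraries overlapped.

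Among the 17 chromatin regulators under domains, 10 were called lower and 1 higher, with a median log2 fold change of −0.20. Over all tested genes 21.6% were lower and 22.3% higher, and over all genes under domains 43.3 and 13.2%. The 23 other regulators tested had 11 lower and 3 higher calls. Ino80, the ATPase of a nucleosome remodelling complex, had 214, 216 and 211 CPM in WT and 123 and 126 CPM in KO, a log2 fold change of −0.78 (SE 0.04, edgeR adjusted p 1.17e-08). Arid1a, a subunit of the BAF remodelling complex, had 299.8, 281 and 269.8 CPM in WT and 178 and 218 CPM in KO, a log2 fold change of −0.52. In both genes each KO library was below each WT library. Changes were smaller for the acetyltransferase gene Crebbp (−0.45), the corepressor gene Ncor1 (−0.34) and the H3K4 demethylase gene Kdm5b (−0.31). The gene that rose was Ezh2, the methyltransferase of PRC2, with 196 to 201 CPM in WT and 226 and 231 CPM in KO, a log2 fold change of 0.21. Under upper-quartile scaling 9 were lower and 2 higher.

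In the pluripotency list, 3 of the 4 genes under domains were called lower and none higher, and of the 16 others 10 were lower and 3 higher, beside 21.6% lower and 22.3% higher over all tested genes. Klf5, a Krüppel-like factor of the naive state (chr14:99298809-99312524), had 349.5, 331 and 338 CPM in WT and 218 and 259 CPM in KO, a log2 fold change of −0.51 (SE 0.06, edgeR adjusted p 2.02e-05). Its KO libraries were apart from each other but below WT. Nr5a2, an orphan nuclear receptor, had 82.5, 79.6 and 79.8 CPM in WT and 56.0 and 64.0 CPM in KO, a log2 fold change of −0.42. Sall4 had −0.19 and lost its call under upper-quartile scaling, with an edgeR adjusted p of 0.0532. Esrrb did not pass, with 419, 401 and 416 CPM in WT and 383 and 399.6 CPM in KO.

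Of the 5 genes of Dot1L complexes and elongation factors under domains, 4 were lower and 1 higher, and the 23 others had 7 lower and 6 higher calls, where 21.6% of all tested genes were lower and 22.3% higher. Aff4, the scaffold of the super elongation complex (chr11:53351597-53370594), had 684, 693 and 684 CPM in WT and 471 and 504 CPM in KO, a log2 fold change of −0.49 (SE 0.04, edgeR adjusted p 4.98e-07). Ccnt2, a cyclin of P-TEFb, had 208, 212 and 208 CPM in WT and 236 and 236 CPM in KO and rose by 0.18. The libraries of each gene were separate by genotype. Supt6, a histone chaperone that travels with the polymerase, had −0.11, a call that lapsed under upper-quartile scaling (edgeR adjusted p 0.335), with the replicate number as a block (0.0643) and when any 1 WT library or KO replicate 1 was left out. Of the list, 2 genes under domains were lower under upper-quartile scaling and also without KO replicate 1.

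Of the 6 genes for splicing proteins under domains, 3 were lower and none higher, and of the 24 others 16 were lower and 1 higher. The shares over all tested genes were 21.6% lower and 22.3% higher. Tra2a had 266, 279 and 276 CPM in WT and 205 and 229 CPM in KO, a log2 fold change of −0.33 (SE 0.05, edgeR adjusted p 1.36e-04). Hnrnpm had −0.22, and Srsf4 had −0.15, whose edgeR adjusted p was 0.200 under upper-quartile scaling, 0.0691 with the replicate number as a block, 0.0826 without KO replicate 1, 0.105 without WT replicate 1 and 0.115 without WT replicate 3. Without KO replicate 2 all 6 were called lower, and without KO replicate 1 there were 2. Of the cell cycle genes, E2f3 fell, with 81.0, 78.6 and 78.9 CPM in WT and 59.5 and 68.0 CPM in KO and a log2 fold change of −0.32, and Cdk1 did not pass.

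The 5 most abundant of the genes under domains that did not pass the test were chosen for that lack of a call. Of all 808 genes under domains 56.6% were called, and of the 674 in the top quintile of WT level 57.9%. Over all 19532 tested genes 43.9% were called. Tet1, which oxidizes 5-methylcytosine, had 1604, 1616 and 1661 CPM in WT and 1521 and 1598 CPM in KO. Its log2 fold change of −0.06 did not pass, although the KO libraries lay below the WT libraries. Cnot1, the scaffold of the CCR4-NOT deadenylase, had 1319, 1307 and 1306 CPM in WT and 1370.3 and 1374 CPM in KO and 0.07, and its libraries were separate without a call. Ywhae, a 14-3-3 protein gene, had −0.01, Hspa4, a heat shock protein gene, −0.05 and Serbp1, an mRNA-binding protein gene, −0.11. With KO replicate 2 left out, Tet1, Serbp1 and Hspa4 passed, with edgeR adjusted p-values of 0.00803, 6.95e-04 and 0.00165, and the lone KO library was assumed to vary like the WT libraries. Cnot1 passed under upper-quartile scaling (0.00312) and without KO replicate 1 (0.0487), and Serbp1 also with no filter on low counts (0.00779) and in a fit of autosomal genes (0.0415).

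Hosts on both sides of the length threshold held higher or lower calls. Gjc1 and Rrp15, inside it, had log2 fold changes of 0.24 and −0.15. Chmp4c, an ESCRT-III gene, and Wac, an adaptor of histone H2B ubiquitination, both just outside, had −0.74 and −0.31, and both were called lower. Rbm27 did not pass. The call of Rrp15 lapsed under upper-quartile scaling (edgeR adjusted p 0.237), with the replicate number as a block (0.0577), in DESeq2 (0.0809) and without WT replicate 2 (0.139), WT replicate 3 (0.118) or KO replicate 1 (0.203). Chmp4c had 64.4, 64.4 and 65.8 CPM in WT and 38.3 and 39.5 CPM in KO, a larger fall than that of most genes under domains, whose lower quartile was −0.24.

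The domains of mESCs were also used to pick genes in 8-cell embryos, where the inhibitor was compared with DMSO and H3K79me2 was not measured. Of the 889 genes 773 were tested. Their median level with DMSO was 108 CPM, against 11.3 CPM over all 14351 tested genes. No gene under a domain passed an edgeR adjusted p under 0.05, as no gene of the table did (0.0% called). At an unadjusted p under 0.05 there were 78 (10.1%), 29 higher and 49 lower, against 8.15% of all tested genes and 9.51% of the 6612 under shorter regions. At that unadjusted edgeR p, 588 of all tested genes were higher and 581 lower, and 291 and 338 of those under shorter regions. DESeq2 called 126 genes in all, 37 higher and 89 lower. Of these, 4 higher and 11 lower lay under domains. The median log2 fold change of genes under domains was −0.03, against 0.01 over all genes.

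The lowest p-values among genes under domains were those of Jarid2 and Esrrb. Jarid2 had 1030.0 and 844 CPM with DMSO and 443 and 634 CPM with SGC0946. The pools did not overlap, and the log2 difference was −0.80 (SE 0.16, edgeR adjusted p 0.203). Over the alternatives its adjusted p ran from 5.84e-08 to 0.190, with a value of 5.6e-06 when the replicate number was used as a block and 6e-04 in DESeq2. Esrrb, a nuclear receptor of the naive state, had 315 and 289 CPM with DMSO and 184 and 204 CPM with SGC0946, a log2 difference of −0.64 (SE 0.13, edgeR adjusted p 0.203). Sun1, a protein gene of the nuclear envelope, had −0.47. In the other direction, Mtdh had 89.5 and 83.5 against 159 and 122 CPM, a log2 fold change of 0.70, and Rrbp1, a ribosome-binding membrane protein gene, had 0.51. Ptch1, the receptor of Hedgehog ligands, had 9.06 and 9.84 against 43.2 and 14.6 CPM, a value that rested on 1 pool: without SGC0946 replicate 1 its log2 fold change was 0.63 instead of 1.61. With the replicate number as a block, the edgeR adjusted p was 0.00244 for Esrrb, 0.022 for Sun1, 0.0109 for Mtdh, 0.0171 for Rrbp1 and 0.0119 for Ptch1, and in DESeq2 it was 0.00111, 0.0138, 0.0162, 0.0189 and 0.0316. In mESCs, the same genes had log2 fold changes in KO of −0.11 for Jarid2, −0.07 for Esrrb, 0.20 for Sun1, −0.02 for Mtdh, −0.06 for Rrbp1 and −0.51 for Ptch1, so the values of Sun1, Mtdh, Rrbp1 and Ptch1 had the other sign there.

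Both RNA tables held 762 of the genes under domains. The 332 of them called lower in KO mESCs had a median log2 fold change of −0.05 with the inhibitor, and 129 were above 0. The 100 called higher in KO had a median of −0.0015, and 49 were above 0. The 330 without a call had a median of 0.00, and 165 were above 0. In embryos 51.4% of all 14351 tested genes and 45.5% of the 773 under domains were above 0. These values describe separate experiments, and no test was made of them.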

How the data were processed

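Peak lists of H3K79me2 and H3K79me3 in mESCs were called per library, and the submitters' processing notes name Bowtie2, MACS2 and mm10, with no parameters. Per the files' columns, the authors deposited for each peak a score (10 times the −log10 q), a ratio (fold enrichment) and −log10 p and q values. For mESC RNA the authors deposited estimated counts per gene, with kallisto, STAR and HTSeq in the notes, and for embryo RNA read counts per gene. The strand setting of the counting is not given in the sources used here. Estimated counts were rounded to whole numbers.

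Regions were built with Python 3.11.15, and RNA was tested with edgeR 4.0.16 (TMM, filterByExpr, quasi-likelihood test, Benjamini-Hochberg adjustment over all tested genes, threshold 0.05) in R 4.3.3, with DESeq2 1.42.0 and limma 3.58.1 as alternatives. mESC and embryo libraries were fitted separately, without replicate blocks. A gene was under a domain when covered by at least 1000 bp, in RefSeq GRCm38.p6, and 84.6% of mESC and 93.7% of embryo symbols were matched. A gene under a shorter region was touched by at least 1 bp of any shared region without being under a domain. This class includes genes that a domain touched by less than 1000 bp. With an overlap of 1 bp for domains, 835 tested genes were under them, with 12.8% called higher and 42.8% lower. Genes with no region touched no shared region, and regions of 1 WT list alone were not counted. Genes without a symbol took at most 0.0163% of counts. The fits were tested on simulated counts with known changes in few genes, drawn from those with a mean above 1 CPM. Changes of 1.5, 2 and 4-fold were given to 67, 67 and 66 genes. The mESC fit recovered 79.1% of 1.5-fold, 94.0% of 2-fold and 100% of 4-fold changes. The embryo fit recovered 7.46, 47.8 and 72.7%, so in this setting many changes of these sizes were missed in embryos. Recovery at the levels of genes under domains, or with many genes changed, was not measured. No 2 libraries agreed within sampling noise.

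Named genes are the hosts of the 10 longest domains, the 8 largest called changes in each direction (mean of at least 1 CPM, libraries not overlapping), up to 6 called genes per list, the hosts of 3 regions on each side of 10000 bp, the 3 lowest p-values per direction in embryos, the 5 most abundant uncalled genes and Dot1l. Members and lists were chosen with earlier results of these data known. Some of the genes that this rule names are not reported here.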

Additional observations from a re-analysis of the deposited data

How the results depend on the processing

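The number of domains was 403 at a minimum of 15000 bp, 2620 with peaks within 1 kb joined, and 474 to 609 with 1 WT list left out. For genes under domains in KO mESCs, upper-quartile scaling gave 167 higher calls and a median log2 fold change of −0.0325, and a minimum length of 15000 bp gave 45 higher and 168 lower calls. The other alternatives kept these counts within 1.5 times, and the median was −0.0623 without KO replicate 1 and −0.1314 without KO replicate 2. In embryos, where edgeR called 0 genes, DESeq2 called 126 genes, 37 higher and 89 lower (4 and 11 under domains). Limma-voom called 55, 11 higher and 44 lower (4 lower under domains). With no filter on low counts the number was 111, 49 higher and 62 lower (5 and 5 under domains). With at least 10 counts in every library it was 23, 8 higher and 15 lower (2 lower under domains). With 1 pool left out it was 4 to 365 genes, with 0 to 14 higher and 0 to 23 lower under domains, the highest without SGC0946 replicate 2, and the lone pool was assumed to vary like the others. The embryo median was −0.0581 to 0.0002, the last, of opposite sign, without DMSO replicate 2. The cause of these differences was not tested. With the replicate number as a block, embryos gave 171 calls, 66 higher and 105 lower (7 and 12 under domains). In mESCs that block gave 8160 calls, 4103 higher and 4057 lower (100 and 336 under domains). Whether the numbers pair the samples is not known. Deviations of same-numbered libraries had correlations of 0.0068 and −0.026 in mESCs and 0.0524 in embryos. Differently numbered embryo pools had −0.0524, the mirror image that 2 pools per group impose. Small correlations over all genes cannot exclude a pairing. The median WT level was 151.6 CPM for an overlap of 1 bp, 155.7 CPM for 5000 bp and 156.8 CPM for host genes, and with 1 H3K79me3 list left out the share of domains with the mark was 45.5 to 66.2%. The 48 domains on chromosome 8 at 15000 bp, and edges from the gene span, were chosen after seeing the data. Of 57 named genes 43 stayed on their side of the threshold in every alternative. No called gene changed sign, while uncalled genes such as Ncoa3, Med26, Mtdh, Rbm27 and Ywhae did in some. Levels per transcript or coding length were not run. Embryo depth was like that of mESCs, but the biological coefficient of variation was 0.442 against 0.0467.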

Other observations

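Broad domains also covered small RNA genes. Annotated hairpins of 6 miRNAs lay within domains: Mir3058 in that of Nudt4, Mir6933 in that of Pgs1, Mir1936 in that of Itpk1, Mir7003 in that of Mybl2, Mir7687 in that of Gse1 and Mir7654 in that of Arglu1. Small RNA was not analysed here. Among the 12 tested genes under domains that are not protein-coding, 1 was called higher and 5 (41.7%) lower in KO, at a median of 2.16 CPM in WT. The lower share was near that of all genes under domains, of which 43.3% were lower and 13.2% higher. Over all tested genes 21.6% were lower and 22.3% higher.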
